A study of Drosophila melanogaster with 24 samples.

Results

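LanA, which encodes a laminin alpha chain, and alpha-Spec, which encodes alpha spectrin, were followed in adult Drosophila that were either mutant for lol (Lobe-less) or of the control strain w1118. They are 2 of the 13873 transcripts measured by the series, and were taken by their FlyBase transcript identifiers, FBtr0077014 for LanA and FBtr0072789 for alpha-Spec. The study asked about Lobe-less, a long noncoding RNA that its title places in the development of the mushroom body, a paired centre of the insect brain for olfactory learning. RNA came from lol and w1118 females and males kept at 23 °C and frozen at day 2 after eclosion, either as whole bodies or as heads that had been sieved off the frozen bodies. Each extraction pooled 100 bodies or heads. The 8 groups were lol female heads, w1118 female heads, lol male heads, w1118 male heads, lol female bodies, w1118 female bodies, lol male bodies and w1118 male bodies, with 3 arrays in each, which the labels describe as separate cultures. The lol allele, and whether the lol strain also carries the white mutation of w1118, are not given in the labels. An effect of lol therefore cannot be told apart from other differences between the strains.

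Laminins are trimers of an alpha, a beta and a gamma chain that are secreted and self-assemble into the sheet on which basement membranes are built. LanA is an alpha chain of this kind, and laminins bind integrins and dystroglycan on the surface of muscle, gut, glia and other cells. Spectrin lies on the other side of the plasma membrane. Alpha spectrin pairs with a beta spectrin into long flexible tetramers that crosslink actin and, through ankyrin, hold membrane proteins in place, in neurons and epithelia among other cells. Both genes lie on chromosome arm 3L in the RefSeq table of Release 6, with 637 other genes between them. That table lists 1 RefSeq transcript for LanA and 4 for alpha-Spec, and it was not examined which of the 4 the array's probes cover.

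Values are log2 expression levels on a one-colour array with 8 probes per transcript, so a difference of 1 is a doubling of signal. Array medians lay between 12.1 and 12.25. LanA and alpha-Spec lay between 13.28 and 14.99, below the highest value on any array of 15.92. Both were measured with less scatter than most transcripts. The residual SD between replicates was 0.16 log2 for LanA and 0.12 for alpha-Spec, against a median of 0.25 over all transcripts. A lower SD than that of LanA was found for 19.9% of transcripts, and a lower one than that of alpha-Spec for 8.54%.

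In a check of the arrays, 4 head arrays stood apart. A set of 214 transcripts that are higher in w1118 female bodies than heads by at least 2 log2 and differ by under 0.5 log2 between the sexes in w1118 bodies had a median level of 10.37 to 10.93 on lol female head replicate 1, lol male head replicate 1 and w1118 male head replicates 1 and 2. Its range was 8.68 to 9.11 on the remaining 8 head arrays and 13.06 to 13.85 on the 12 body arrays. Tests on heads are therefore given with and without these 4 arrays where a compared group holds 1 of them. None of the 36 listed markers of photoreceptors, neurons, glia, muscle, fat body, ovary and testis was matched to a measured transcript. Tissue labels were therefore checked with this set and with 1439 transcripts higher in w1118 male than female bodies by at least 2 log2. Both sets were chosen on these same data, the first on w1118 female heads and w1118 bodies, the second on w1118 bodies. Their levels on the arrays used for the choice follow from it and check no label there. The median of the second set was 10.16 on lol male head replicate 1 and 9.88 and 10.67 on w1118 male head replicates 1 and 2, against 8.42 on lol female head replicate 1 and 8.40 to 8.60 on the remaining 8 head arrays. In RNA from whole heads or bodies, fewer cells of a type and less RNA per cell cannot be told apart.

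LanA was lower in lol than in w1118 heads of both sexes. In female heads it stood at 13.36, 13.48 and 13.60 on the 3 lol arrays, against 14.38, 14.60 and 14.06 on the 3 w1118 arrays. Every lol array lay below every w1118 array, and the gap between the nearest arrays of the strains was 0.45, an order that 8.4% of all transcripts shared. The mean was 13.48 ± 0.12 in lol and 14.35 ± 0.27 in w1118 (SD, n = 3 each). LanA thus fell by 0.87 log2, or 1.82-fold, with a 95% confidence interval from -1.15 to -0.58 (adjusted p = 0.000595, limma with Benjamini-Hochberg adjustment over all transcripts). Of all transcripts, 3.63% passed the threshold of 0.05 in this comparison, 1.72% as lower in lol, and 1.48% had a more negative difference than LanA. With only the 6 compared arrays in the fit LanA missed the threshold (adjusted p = 0.0802, limma), and without the 4 head arrays the difference was -0.81 (adjusted p = 0.00407).

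In male heads LanA stood at 13.54, 13.49 and 13.38 on the lol arrays and at 13.89, 14.07 and 14.37 on the w1118 arrays. Every lol array again lay below every w1118 array, with a gap of 0.35. That order, at any gap, was found for 7.41% of all transcripts, and the reverse order for 7.6%. LanA fell by 0.64 log2, or 1.56-fold, with an interval from -0.92 to -0.36 (adjusted p = 0.00728, limma). The share of all transcripts called was 4.68%, with 2.31% called lower, and 7.90% of transcripts had a more negative difference. The w1118 arrays with more body-enriched signal were the 2 with the lower LanA values. Without the 4 head arrays the difference was -0.94 (adjusted p = 0.02, limma); w1118 male heads then hold 1 array, whose scatter is taken from the rest of the groups. LanA missed the threshold with head arrays alone in the fit (adjusted p = 0.0897) and with the 6 compared arrays (0.244).

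In whole bodies LanA was again lower on every lol array, and the call held in males only. In male bodies, where 15.8% of all transcripts had every lol array below every w1118 array, it stood at 13.56, 13.87 and 13.67 on the lol arrays and at 14.40, 14.22 and 14.25 on the w1118 arrays. It fell by 0.59 log2, or 1.51-fold, with an interval from -0.87 to -0.31 (adjusted p = 0.00969, limma). Here 8.65% of all transcripts were called, 5.76% as lower. The call was lost in a fit to these 6 arrays (adjusted p = 0.0552), and also when replicate 1 of lol (0.0532) or of w1118 (0.051) was left out. The body-enriched set of 214 transcripts stood at 13.26, 13.13 and 13.06 on the lol male body arrays and at 13.61, 13.32 and 13.47 on the w1118 ones. Its part in the LanA difference was not tested.

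In female bodies LanA stood at 14.45, 14.44 and 14.47 on the lol arrays, the tightest of its groups, and at 14.84, 14.90 and 14.99 on the w1118 arrays. Every lol array lay below every w1118 array, with a gap of 0.37. In female bodies 11.7% of all transcripts had that order at any gap, and 13.8% had the reverse order. The difference of -0.45 log2, with an interval from -0.74 to -0.17, did not pass (adjusted p = 0.0606, limma), while 4.87% of all transcripts did, 2.3% as lower. It passed with body arrays alone (adjusted p = 0.0366) and with an intensity trend and a robust prior (0.0421). The body-enriched set lay the other way in females, at 13.85, 13.75 and 13.79 on the lol arrays and 13.71, 13.52 and 13.63 on the w1118 arrays.

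**Figure D1:**
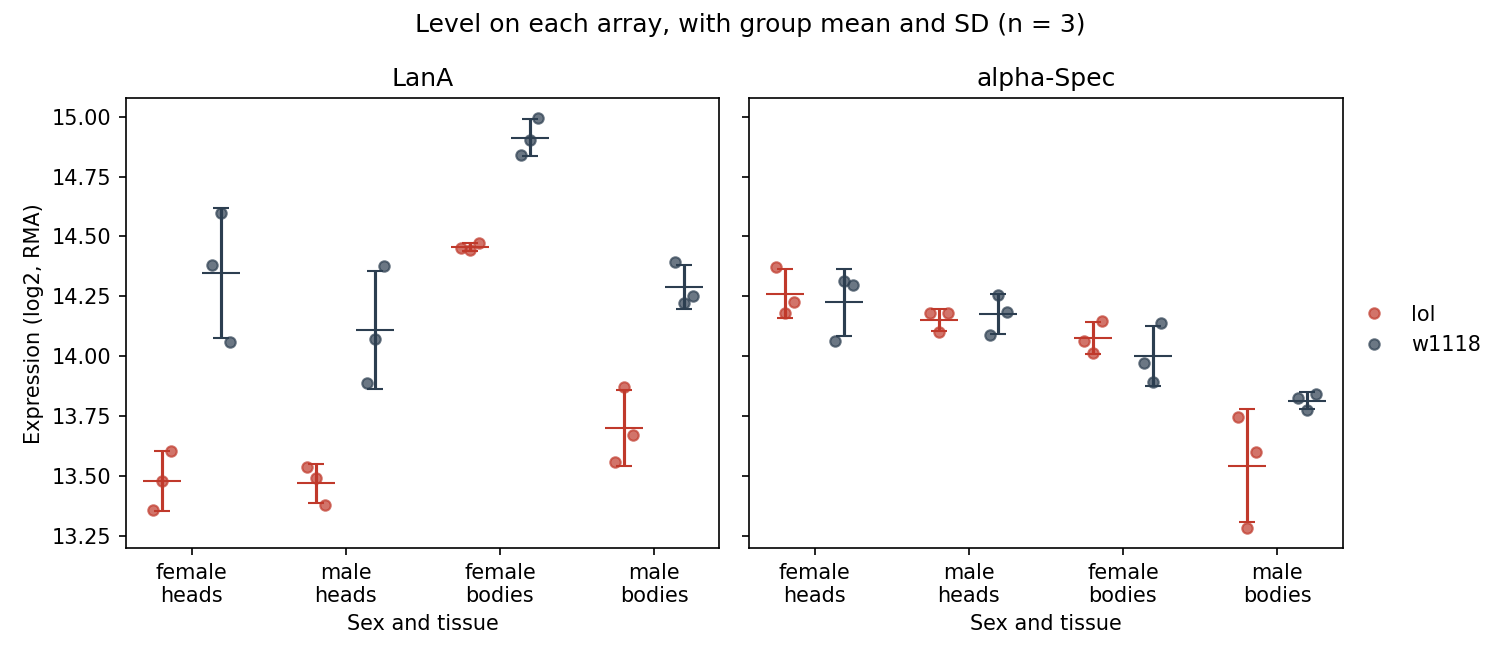
Expression level (log2, RMA) of LanA and alpha-Spec on each of the 24 arrays, lol in red and w1118 in dark blue, for each sex and tissue. Points are arrays, horizontal lines group means and bars the SD (n = 3). LanA lies lower on every lol array than on every w1118 array of the same sex and tissue, and alpha-Spec overlaps between the strains except in male bodies.

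Averaged over the 4 sex and tissue groups, LanA was lower in lol by 0.64 log2, or 1.56-fold, with an interval from -0.78 to -0.50 (adjusted p = 1.13e-06, limma). In this mean 19.6% of all transcripts were called, 10.5% as lower, and 2.99% had a more negative difference. The median over all transcripts was -0.01. An exact two-sided permutation of the strain labels within each sex and tissue gave p = 1.25e-05 for LanA, the smallest that its 160000 assignments can give. Every lol array lay below every w1118 array of the same sex and tissue, in all 4 groups, for 218 transcripts, or 1.57% of those measured. Without the 4 head arrays the mean difference of LanA was -0.70 (adjusted p = 9.79e-06, limma, and exact permutation p = 8.33e-05).

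The level of alpha-Spec was nearly the same in both strains in 3 of the 4 sex and tissue groups. In female heads it stood at 14.37, 14.18 and 14.23 in lol and at 14.06, 14.31 and 14.29 in w1118. In male heads it stood at 14.18, 14.10 and 14.18 in lol and at 14.09, 14.26 and 14.19 in w1118. In female bodies it stood at 14.06, 14.01 and 14.15 in lol and at 13.97, 13.89 and 14.14 in w1118. The strains overlapped in each of these groups. The differences were 0.04 log2 in female heads (interval -0.20 to 0.27), -0.02 in male heads (-0.26 to 0.21) and 0.07 in female bodies (-0.16 to 0.31), and none passed (adjusted p = 0.984, 0.946 and 0.881, limma). The difference without the 4 head arrays was -0.02 in female heads (adjusted p = 0.981) and -0.05 in male heads (0.997).

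In male bodies the difference between the strains had a larger estimate, which did not pass the test. There alpha-Spec stood at 13.74, 13.28 and 13.60 on the lol arrays and at 13.83, 13.77 and 13.84 on the w1118 arrays. The highest lol array lay 0.03 below the lowest w1118 array, and the same order was seen for 15.8% of all transcripts. The difference of -0.27 log2 had an interval from -0.50 to -0.04 (adjusted p = 0.146, limma). It moved to -0.14 without lol male body replicate 2, the array at 13.28 (adjusted p = 0.516). Averaged over the 4 groups the difference was -0.05 log2 with an interval from -0.16 to 0.07 (adjusted p = 0.64, limma, and exact permutation p = 0.436), and -0.07 without the 4 head arrays (adjusted p = 0.612).

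**Figure D2:**
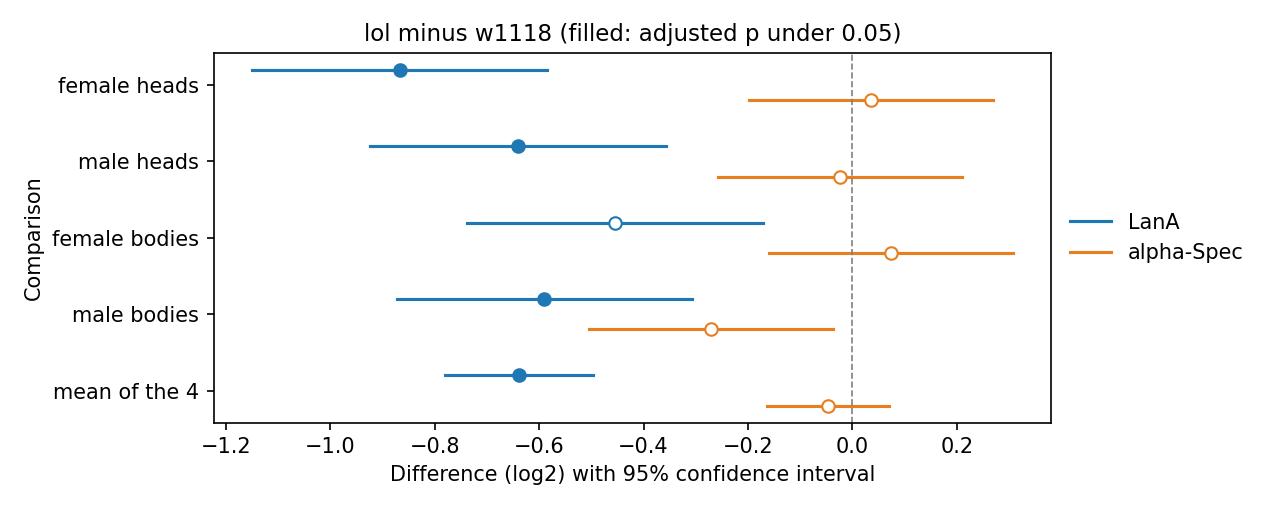
Difference between lol and w1118 (lol minus w1118, log2) for LanA and alpha-Spec in each sex and tissue and in their mean, with 95% confidence intervals from limma. Filled points passed an adjusted p of 0.05. LanA lies between -0.87 and -0.45, and alpha-Spec lies near 0 except for -0.27 in male bodies.

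The strain difference was not the same for LanA and alpha-Spec. The log2 difference between LanA and alpha-Spec within an array, which does not depend on how an array as a whole was scaled, was lower in lol by 0.59 on average. An exact two-sided permutation of the strain labels within sex and tissue gave p = 5e-05 for it. The average was -0.63 without the 4 head arrays (exact permutation p = 0.000333). Levels of different probe sets are not comparable, so nothing is said on which transcript is the more abundant.

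**Figure D3:**
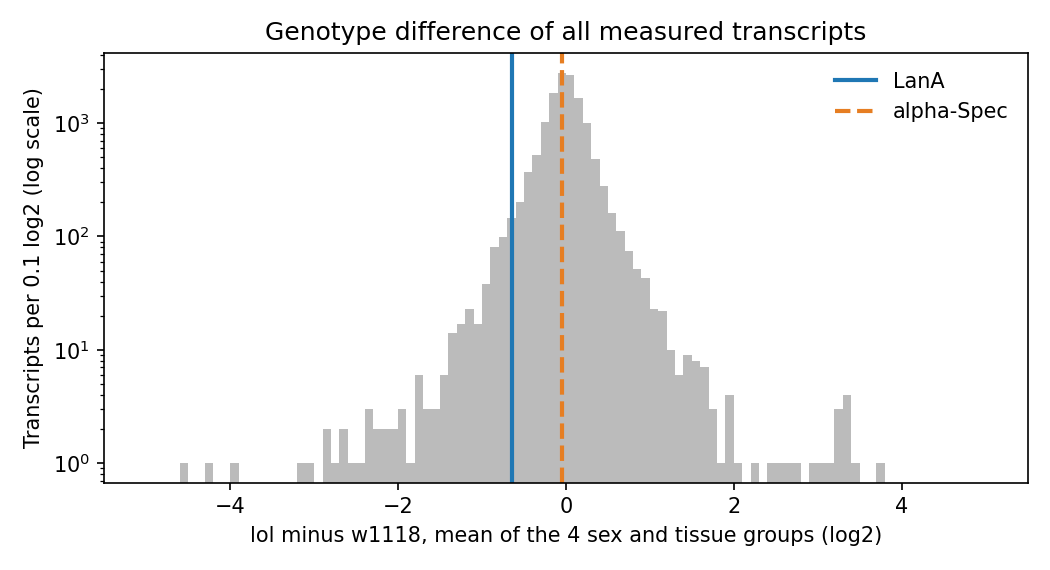
Histogram of the difference between lol and w1118 (lol minus w1118, log2, mean of the 4 sex and tissue groups) over 13873 transcripts, in bins of 0.1 with a log count axis. The solid line marks LanA at -0.64 and the dashed line alpha-Spec at -0.05, close to the median of -0.01.

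Whether the strain difference of each transcript depended on sex or tissue was tested as a difference of differences. For LanA the strain effect in females minus that in males was -0.23 log2 in heads (interval -0.63 to 0.17, adjusted p = 1, limma) and 0.14 in bodies (-0.27 to 0.54, adjusted p = 0.82). The effect in heads minus that in bodies was -0.41 in females (-0.81 to -0.01, unadjusted p = 0.0441, adjusted p = 0.955) and -0.05 in males (-0.45 to 0.35, adjusted p = 0.963). None of these passed, so the larger fall in female heads and the missed call in female bodies were not shown to differ from the other groups. For alpha-Spec the most positive of these differences, 0.35 between female and male bodies, had an interval from 0.02 to 0.68 and did not pass either (adjusted p = 0.401). The other estimates for alpha-Spec were 0.06 between the sexes in heads, -0.04 between the tissues in females and 0.25 between the tissues in males (adjusted p = 1, 1 and 0.689). Without the 4 head arrays, the LanA values were 0.13 for the sexes in heads, -0.35 for the tissues in females and -0.35 for the tissues in males, and the alpha-Spec values were 0.03, -0.10 and 0.22 in the same order. None of these passed either (adjusted p between 0.74 and 1, limma). With a single array left out, the LanA estimate for the sexes in heads ranged from -0.37 without w1118 female head replicate 3 to -0.10 without w1118 female head replicate 2. Of all transcripts, 0% passed for the sexes in heads, 0.252% for the sexes in bodies, 0.375% for the tissues in females and 0.432% for the tissues in males.

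Tissue was compared next, as heads against bodies of the same strain and sex, where whole bodies include the head. LanA was lower in heads than in bodies of females, by 0.98 log2 in lol (1.97-fold, interval -1.26 to -0.69, adjusted p = 9.88e-06, limma) and by 0.57 in w1118 (1.48-fold, interval -0.85 to -0.28, adjusted p = 0.00233). Of all transcripts, 8.64% in lol females and 18.8% in w1118 females had a more negative difference than LanA. In males the difference did not pass, at -0.23 in lol (adjusted p = 0.146) and -0.18 in w1118 (adjusted p = 0.279). Without the 4 head arrays it was -0.92 in lol females (adjusted p = 0.000125), -0.26 in lol males (0.124) and 0.09 in w1118 males (0.728), where a single head array remained. With a single array left out, the value in w1118 males ranged from -0.31 without head replicate 3 to -0.07 without head replicate 1. Of all transcripts, 37.2% were called in lol females (18.2% lower in heads), 38.4% in w1118 females (18.7% lower), 63.2% in lol males and 55.1% in w1118 males.

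The tissue difference of alpha-Spec ran the other way, with higher levels in heads. It rose by 0.61 log2 in lol males (1.53-fold, interval 0.38 to 0.84, adjusted p = 9.2e-05, limma) and by 0.36 in w1118 males (1.29-fold, interval 0.13 to 0.60, adjusted p = 0.00951). Of all transcripts, 39.7% in lol males and 31.6% in w1118 males were called higher in heads. The median head minus body difference over all transcripts was 0.25 in lol males and 0.16 in w1118 males. Lower values than that of alpha-Spec were found for 67.9% of transcripts in lol males and 62.6% in w1118 males. The call in w1118 males was lost without the 4 head arrays, where the difference was 0.37 (adjusted p = 0.0819), and with the 6 compared arrays alone (adjusted p = 0.0563). In lol males it was 0.60 without the 4 arrays (adjusted p = 0.0012). In females the differences did not pass, at 0.19 in lol (interval -0.05 to 0.42, adjusted p = 0.212) and 0.22 in w1118 (interval -0.01 to 0.46, adjusted p = 0.124). The value in lol females was 0.13 without the 4 arrays (adjusted p = 0.506).

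Sex differences were called in bodies. LanA was higher in female than in male bodies by 0.76 log2 in lol (1.69-fold, interval 0.47 to 1.04, adjusted p = 0.000106, limma) and by 0.62 in w1118 (1.54-fold, interval 0.34 to 0.91, adjusted p = 0.000948). Of all transcripts, 75.5% in lol bodies and 76.7% in w1118 bodies had a lower female minus male value than LanA. For alpha-Spec, female bodies were higher by 0.53 in lol (1.45-fold, interval 0.30 to 0.77, adjusted p = 0.000484), and the difference in w1118 of 0.19 (interval -0.05 to 0.42) did not pass (adjusted p = 0.181). These calls stand among many. Between the sexes, 59.5% of all transcripts were called in lol bodies (43.4% higher in females) and 45.3% in w1118 bodies (29.9% higher). The median female minus male difference over all transcripts was 0.38 in lol bodies and 0.26 in w1118 bodies. Values below that of alpha-Spec were found for 61.0% of transcripts in lol and 43.3% in w1118.

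In heads no sex difference of either transcript passed. For LanA it was 0.01 log2 in lol (interval -0.27 to 0.29, adjusted p = 1, limma) and 0.24 in w1118 (-0.05 to 0.52, adjusted p = 0.557). Without the 4 head arrays the values were 0.11 in lol (adjusted p = 1) and -0.03 in w1118 (0.998). With a single array left out, the w1118 value ranged from 0.11 without female head replicate 2 to 0.38 without female head replicate 3. For alpha-Spec it was 0.11 in lol (-0.12 to 0.34, adjusted p = 1) and 0.05 in w1118 (-0.18 to 0.28, adjusted p = 0.931), against 0.07 and 0.04 without the 4 arrays (adjusted p = 1 and 0.998). Only 0.0865% of all transcripts were called in heads of lol, and the same share in heads of w1118.

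**Figure D4:**
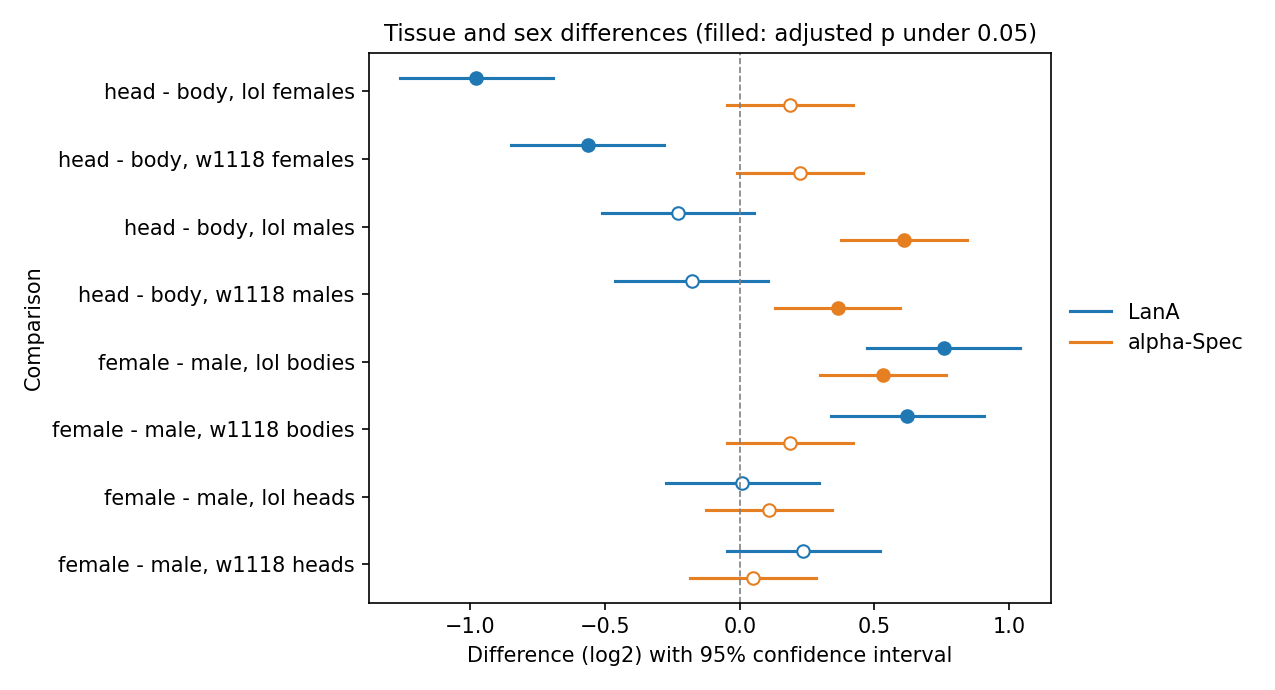
Differences between heads and bodies (head minus body) and between the sexes (female minus male) in log2 for LanA and alpha-Spec, in lol and w1118, with 95% confidence intervals from limma. Filled points passed an adjusted p of 0.05. LanA is lower in female heads than female bodies at -0.98 and -0.57, alpha-Spec is higher in male heads than male bodies at 0.61 and 0.36, and the sex differences of LanA passed the test in bodies, at 0.76 and 0.62, and did not pass in heads, at 0.01 and 0.24.

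The contrast of heads with bodies was set against sex in a test that was added after these values had been seen. In lol the head minus body difference of LanA was more negative in females than in males by 0.75 log2 (interval -1.15 to -0.35, adjusted p = 0.00499, limma), a comparison in which 38.4% of all transcripts passed, and by 0.65 without the 4 head arrays (adjusted p = 0.0214). In w1118 the same contrast was -0.39 (interval -0.79 to 0.01, adjusted p = 0.172), with 21.7% of all transcripts called, and it passed at -0.65 without the 4 head arrays (adjusted p = 0.0431). For alpha-Spec it was -0.42 in lol (interval -0.75 to -0.09, adjusted p = 0.0402) and -0.14 in w1118 (interval -0.47 to 0.19, adjusted p = 0.59), where it was -0.15 without the 4 arrays (adjusted p = 0.668). The call for alpha-Spec in lol was lost without the 4 head arrays, at -0.47 (adjusted p = 0.0675), with the compared groups alone (0.0889), and without any single one of 7 of the 12 lol arrays (adjusted p up to 0.122). Those 7 were female body replicates 1 and 3, male body replicate 2, female head replicates 2 and 3, and male head replicates 1 and 3. The median of this contrast over all transcripts was -0.34 in lol and -0.20 in w1118. In lol, 22.3% of transcripts had a more negative value than LanA, and 43.4% than alpha-Spec.

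Ordered by level, the 8 groups of LanA fell into 3 blocks. The w1118 female bodies were highest at 14.91 ± 0.08 (SD, n = 3) and lay apart from the next group. Then came lol female bodies at 14.46 ± 0.02, w1118 female heads at 14.35 ± 0.27, w1118 male bodies at 14.29 ± 0.09 and w1118 male heads at 14.11 ± 0.25, each overlapping its neighbour in that order. Below a gap of 0.41 between neighbouring means lay lol male bodies at 13.70 ± 0.16, lol female heads at 13.48 ± 0.12 and lol male heads at 13.47 ± 0.08, again overlapping. The nearest arrays across that gap were w1118 male head replicate 1 at 13.89 and lol male body replicate 2 at 13.87. That head array is among the 4 that stood apart. The span from the highest to the lowest group mean was 1.44 log2, or 2.72-fold.

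By group mean, heads came before bodies for alpha-Spec. The 4 head groups stood highest, between 14.15 ± 0.05 in lol males and 14.26 ± 0.10 in lol females (SD, n = 3), with every neighbour in the order overlapping. Female bodies followed at 14.07 ± 0.07 in lol and 14.00 ± 0.13 in w1118. These overlapped each other, and lol female bodies overlapped lol male heads above them. Male bodies were lowest, at 13.54 ± 0.24 in lol and 13.81 ± 0.04 in w1118, each apart from the group above it. The span of group means was 0.72 log2, or 1.65-fold.

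The balanced design splits the sum of squares of a transcript over the 24 arrays into strain, sex, tissue, their combinations and the scatter between replicates. For LanA, strain took 41.6%, tissue 24.3%, sex 16.9%, sex by tissue 8.22% and the scatter between replicates 6.72%. For alpha-Spec, tissue took 48.6%, sex 19.5%, sex by tissue 8.04% and the scatter 15.7%, and strain took 0.871%. The median share of strain over all transcripts was 1.98%, and 96.6% of transcripts had a smaller share than LanA. The shares of strain restate the mean strain difference and are no separate evidence.

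Across the 24 arrays LanA and alpha-Spec had a Pearson correlation of -0.05, and of -0.20 for their deviations from the 8 group means. The transcripts most like LanA over the 24 arrays were FBtr0071928 (r = 0.963) and FBtr0079698 (r = 0.944), whose genes the files and the reference table do not name. Those most like alpha-Spec were FBtr0086104 (r = 0.941) and FBtr0074359 (r = 0.937), also unnamed. Among the 14 others that the reference table pairs with a single gene, LanA was most like SuUR (r = 0.724) and sle (r = 0.49). For alpha-Spec these were CG16974 (r = 0.855) and kis (r = 0.835), a chromatin remodeller. These correlations describe arrays that share strain, sex and tissue, and over all transcripts the 5th and 95th percentiles were -0.50 and 0.70 for LanA and -0.78 and 0.82 for alpha-Spec.

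The most similar transcript was picked by its correlation with LanA on these arrays, so a shared pattern was given by the choice. FBtr0071928 averaged 10.25 ± 0.23 in lol female heads and 11.70 ± 0.42 in w1118 female heads, and 10.23 ± 0.15 in lol male heads and 11.47 ± 0.25 in w1118 male heads (SD, n = 3 each). In bodies it averaged 12.01 ± 0.09 in lol females and 12.26 ± 0.22 in w1118 females, and 10.87 ± 0.19 in lol males and 11.62 ± 0.18 in w1118 males. Its mean, like that of LanA, lay lower in lol in each sex and tissue, with the smallest difference in female bodies. Like that of LanA, it also lay lower in heads than in bodies of each strain and sex. For the partners of LanA and alpha-Spec themselves no value can be given here. None of 17 listed genes of the basement membrane and its receptors (among them LanB1, LanB2, trol and vkg) and none of 15 of the membrane skeleton (among them beta-Spec, Ank and hts) was matched to a measured transcript through the reference table.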

How the data were processed

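The authors deposited 1 table of log2 expression values for 24 one-colour (Cy3) NimbleGen arrays. The values were made with RMA, per the submitters' processing notes, and base 2 was read from their range (6.61 to 15.92). Neither the version of RMA nor the set of arrays it was run on is given in the labels. The design covered 16637 FlyBase transcripts, per the labels. The table lists 15595, of which 1722 are empty on all arrays and were dropped. Arrays have no count depth, so their number limits the precision.

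A limma model (version 3.58.1 under R 4.3.3) with 8 group means was fitted to all 13873 transcripts and 24 arrays, with Benjamini-Hochberg adjustment over all transcripts and a threshold of 0.05. It was tested on simulated data. Permutation tests and summaries used Python 3.11.15 with SciPy 1.17.1. Names came from the RefSeq table of Release 6, in which 43 measured identifiers are listed, 16 of them with a single gene. The most similar transcripts were taken by a rule, as the 2 with the highest Pearson correlation to each member among all transcripts and the 2 highest among the named ones. The alternatives changed the prior (trended and robust), the arrays in the fit (1 tissue, 1 sex or only the compared groups), the scaling (quantile normalization once more, or median centring), the filter (lowest 25% of transcripts by mean dropped) and the block (replicate number), or left out each array or 4 head arrays. The deviations of same-numbered arrays of the strains correlated above 0.1 in all 3 pairs only in male bodies (0.23, 0.29 and 0.34). In female bodies the correlations were 0.40, 0.085 and 0.51. Of all 12 pairs, 9 correlated above 0.1, and the correlation ranged from -0.59 to 0.67. These values do not settle whether the numbers pair the arrays. The replicate number was used as a block only as an alternative. The members, lists, comparisons and alternatives were chosen with earlier results of these data known.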

Additional observations from a re-analysis of the deposited data

Results flagged for a closer look

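The contrast of heads with bodies differed between females and males of lol for both transcripts. For LanA the difference of the head minus body effects, females minus males, was -0.75 log2 (adjusted p = 0.00499, limma). For alpha-Spec it was -0.42 (adjusted p = 0.0402), and this call was lost in 7 of the 12 fits that left out 1 lol array. Over all transcripts the median of this difference was -0.34, and 38.4% passed the same test. A more negative value than that of LanA was found for 22.3% of transcripts, and than that of alpha-Spec for 43.4%.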

How the results depend on the processing

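Of 41 results, 24 kept their sign and their side of the threshold in every alternative. The replicate block changed none of 38 calls. In male bodies, where the numbers paired the arrays, the LanA difference of -0.59 had an adjusted p of 0.0118 with the block. For LanA between the strains, calls were lost with the compared groups alone in female heads (-0.87, adjusted p = 0.0802, limma), male heads (-0.64, 0.244) and male bodies (-0.59, 0.0552), and with head arrays alone in male heads (-0.64, 0.0897). In female bodies -0.45 passed with body arrays alone (0.0366) and with a trend and robust prior (0.0421). Fewer arrays leave fewer degrees of freedom, and the cause of the other changes was not tested. For alpha-Spec in w1118 heads minus bodies, 0.36 in males was lost with the compared groups alone (0.0563) and 0.37 without the 4 head arrays (0.0819), and 0.28 in females passed after median centring (0.0483). The added contrast of tissue by sex was lost for alpha-Spec in lol at -0.42 with the compared groups alone (0.0889) and at -0.47 without the 4 arrays (0.0675), and passed for LanA in w1118 at -0.65 without them (0.0431).

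Signs turned only for differences that had not passed. Without the 4 arrays these were alpha-Spec between the strains in female heads (-0.021), the LanA strain effect in female minus male heads (0.13), LanA in w1118 male heads minus bodies (0.085) and in w1118 female minus male heads (-0.028). LanA in lol female minus male heads was -0.010 after centring and -0.0053 after quantile normalization again. Leaving out 1 array gave -0.68 to -0.52 for LanA between the strains in male bodies and -0.53 to -0.29 for alpha-Spec in the added contrast in lol. For alpha-Spec between the strains in male bodies (-0.27) it gave -0.37 to -0.14. It gave -0.044 to 0.081 for alpha-Spec between the strains in female heads, -0.068 to 0.016 in male heads, -0.12 to 0.016 for its strain effect in female heads minus bodies and -0.020 to 0.10 in female minus male heads. For LanA it gave -0.16 to 0.081 for the strain effect in male heads minus bodies and -0.053 to 0.071 for lol female minus male heads.

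Over all transcripts, the 503 calls between the strains in female heads ranged from 171 to 568 over the alternatives, 649 in male heads from 59 to 1268, 676 in female bodies from 356 to 838 and 1200 in male bodies from 612 to 1617. The tests of the strain effect with 0, 35, 52 and 60 calls ranged up to 17, from 9 to 119, 15 to 107 and 23 to 118. Sex differences in heads, with 12 calls in each strain, reached 15 in lol and 1182 in w1118, and 0 with the compared groups alone. The added contrast in w1118 fell to 1654 calls with the lowest 25% dropped, against 3009.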
